A study of Mus musculus with 26 samples.

Results

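Matrix metalloproteinases (MMPs) are secreted or membrane-bound enzymes that cut the extracellular matrix, and Timp1 encodes a secreted protein that inhibits them. Described here are 10 genes, picked by name with earlier results of these data known: Mmp2, Mmp3, Mmp7, Mmp8, Mmp9, Mmp10, Mmp12, Mmp13, Mmp14 and Timp1. They were found among 35975 genes summed from the transcript tables of 26 mouse colon samples. A filter on low counts kept 17063 genes for testing, and all 10 passed it.

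The study followed a colitis-associated tumour model under activation of the liver X receptor (LXR), a nuclear receptor for oxysterols. All mice were wild-type C57BL/6J males from Taconic, aged about 10 weeks at the start. Treated mice received 1 injection of azoxymethane (AOM, a carcinogen) at 10 mg/kg and then 3 planned cycles of dextran sodium sulfate (DSS, which injures the colon lining), with 7 days of DSS in each. They ate a standard diet or a diet that held GW3965, a synthetic LXR agonist, and colon tissue was taken on day 22, 43 or 70 after AOM. The paper places day 22 after the first round of DSS, and by its schedule day 43 came before the last round. Only the mice of day 70 had thus been due all 3 cycles. Effects of the day and of the number of cycles therefore cannot be told apart.

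The groups were thus the standard diet and the GW3965 diet at days 22, 43 and 70, with 3 samples each, and for each diet 4 day 0 samples without AOM or DSS, of which 2 had 22 days of diet and 2 had 43 days. By the labels, cage A held the standard-diet samples of days 22 and 43, cage B those of the GW3965 diet, and cages E and F the day 0 samples of the standard and the GW3965 diet. Each day 70 sample came from a cage of its own. Effects of diet and cage therefore cannot be told apart at days 0, 22 and 43, nor can those of AOM–DSS and cage at days 22 and 43. The day 0 samples set against day 70 also came from a single cage per diet. They had 22 or 43 days of diet, against 70 days in the day 70 samples. According to the paper, tissue for RNA came from the distal colon, where the tumours arise. It reports no visible tumours at day 22, tumours almost only on the standard diet at day 43, and tumours on both diets, to differing extents, at day 70. Effects of diet and of tumour content therefore cannot be told apart at days 43 and 70. The part of tumour tissue in the levels was not tested.

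Total estimated counts ranged from 18195345 to 41522204 per sample, with a median of 20424701. Replicate 1 of the standard diet at day 43 stood apart, with the highest total and an RNA integrity number of 2.6, against 6.8 to 9.3 in the other day 43 samples. All 6 day 43 samples had a high share of counts on 88 ribosomal protein genes, from 10.0% to 18.6%, against 3.96% to 10.7% in the other 20. The statistical model therefore carried that share as a term, and day 43 is given with and without it. For replicate 2 of the GW3965 diet at day 0 after 43 diet days, the title names GW3965 and the diet label names the standard diet. It was placed by its title.

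The LXR targets Abca1 and Abcg1, which export sterols, and Srebf1, a regulator of fatty acid synthesis, bear on that label. All 3 were called higher with GW3965 at each of the 4 days in edgeR's quasi-likelihood test. Abca1 lay between 113 and 152 CPM (counts scaled to library size) in the 4 GW3965 samples of day 0, the sample in doubt included, and between 18.5 and 41.0 in the 4 standard-diet samples.

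Most MMPs are made as inactive precursors that are cut to become active, and TIMP proteins block their active site. Collagenases cut fibrillar collagen, gelatinases cut denatured collagen and basement membrane, and stromelysins cut a wide range of matrix proteins. In the injured intestine, MMPs are known from fibroblasts, macrophages, neutrophils and the epithelium at ulcers and wounds, and many of their genes respond to inflammatory cytokines through AP-1 sites.

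Of the members, 6 lie side by side on chromosome 9 of GRCm38. A stretch of 427 kb, chr9:7272514-7699585, holds 9 protein-coding genes of the annotation, all of them MMP genes. In order they are Mmp13, Mmp12, Mmp1b, Mmp3, Mmp10, Mmp8, Mmp27, Mmp20 and Mmp7. Mmp1b, Mmp27 and Mmp20 are not members. Mmp1b was too low to test, with at most 0.0845 CPM in any sample, while Mmp27 and Mmp20 reached 2.25 and 3.51 CPM. Mmp2 (chromosome 8), Mmp9 (chromosome 2), Mmp14 (chromosome 14) and Timp1 (chromosome X) lie elsewhere. Timp1 sits wholly within Syn1, a neuronal gene on the opposite strand, which had a median of 1.21 CPM.

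RefSeq promoter sequences of GRCm38.p6 were matched for 8 of the 10 members, and those of Mmp2 and Mmp9 were not in the table. The AP-1 site TGAGTCA, read on both strands, was in the 250 bases before the start of Mmp3, Mmp7, Mmp10 and Mmp13 and before the second start of Mmp12. Of 32851 promoters of that length, 4.46% hold it. Its first base lies 46 bases before the start in Mmp3, 63 in Mmp7, 63 in Mmp10 and 35 in Mmp13, where it reads TGACTCA because it is on the other strand. The last 90 bases before the start of these 4 genes are shown, since each holds the site there. Capitals mark the AP-1 site. All 4 sequences are from the plus strand, at chr9:7445732-7445821 (Mmp3), chr9:7692000-7692089 (Mmp7), chr9:7502252-7502341 (Mmp10) and chr9:7272424-7272513 (Mmp13).
Mmp3: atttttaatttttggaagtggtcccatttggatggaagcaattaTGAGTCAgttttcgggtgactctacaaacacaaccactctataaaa
Mmp7: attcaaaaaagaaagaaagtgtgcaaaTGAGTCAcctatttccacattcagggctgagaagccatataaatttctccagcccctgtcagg
Mmp10: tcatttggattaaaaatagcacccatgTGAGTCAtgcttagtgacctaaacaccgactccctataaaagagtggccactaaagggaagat
Mmp13: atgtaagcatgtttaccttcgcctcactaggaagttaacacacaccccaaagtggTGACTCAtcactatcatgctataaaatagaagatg

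The windows of Mmp8, Mmp14 and Timp1 did not hold these letters. The ETS-type site AGGAAG, in 29.5% of all promoters, was found in Mmp3, Mmp7, Mmp8, Mmp12, Mmp13, Mmp14 and Timp1. The TATA box TATAAA, in 12.4% of promoters, was found in Mmp3, Mmp7, Mmp10 and Mmp13, and the TCF site CTTTGAT, in 3.21%, before a second start of Mmp7. An LXR element of the DR4 type, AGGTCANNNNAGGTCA, was in 0.0152% of promoters and in none of the 8 members matched. All motifs were read on both strands, and a match is a description, not a site at which a factor was shown to bind.

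In colon without AOM or DSS, the members ranked in the same first 3 places on both diets when compared in TPM, which also scale to transcript length. Mmp14, a membrane-type MMP that activates the Mmp2 precursor, stood first with 37.1 ± 1.3 TPM on the standard diet and 33.2 ± 3.53 on GW3965 (mean ± SD, n = 4, here and for all day 0 groups). Mmp2, a gelatinase of stromal cells, was second with 20.9 ± 2.89 and 19.4 ± 3.86 TPM, and the ranges of Mmp14 and Mmp2 did not overlap on either diet. Timp1 followed with 3.75 ± 0.721 and 2.78 ± 1.07 TPM. The next in order on the standard diet were Mmp12 with 1.71 ± 0.751, Mmp13 with 1.58 ± 0.406 and Mmp3 with 1.39 ± 0.551 TPM, which did not differ beyond their spread. Mmp9 and Mmp10 followed, at 0.730 ± 0.355 and 0.646 ± 0.387 TPM, and also lay within each other's spread. Mmp7 and Mmp8 came last, at 0.272 ± 0.294 and 0.0786 ± 0.0649 TPM.

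By day 70 Mmp7 had moved to the top, while Mmp8 was last as before. With the standard diet Mmp7 led with 698 ± 452 TPM (n = 3) and a range above that of Mmp14, followed by Mmp14 with 113 ± 20.6, Mmp10 with 100 ± 13.8 and Mmp13 with 85.5 ± 12.5 TPM. Neighbours among Mmp14, Mmp10 and Mmp13 did not differ beyond their spread. Mmp2, Mmp3 and Timp1 formed the next step, with 42.9 ± 14.5, 40.7 ± 13.95 and 33.2 ± 13.5 TPM, also within their spread. Mmp12, Mmp9 and Mmp8 were lowest, with 12.2 ± 10.1, 9.83 ± 1.496 and 3.37 ± 2.07 TPM. On GW3965 Mmp7 led as well, with 180 ± 156 TPM, ahead of Mmp14 with 98.9 ± 28.5 TPM, and these did not differ beyond their spread.

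**Figure D1:**
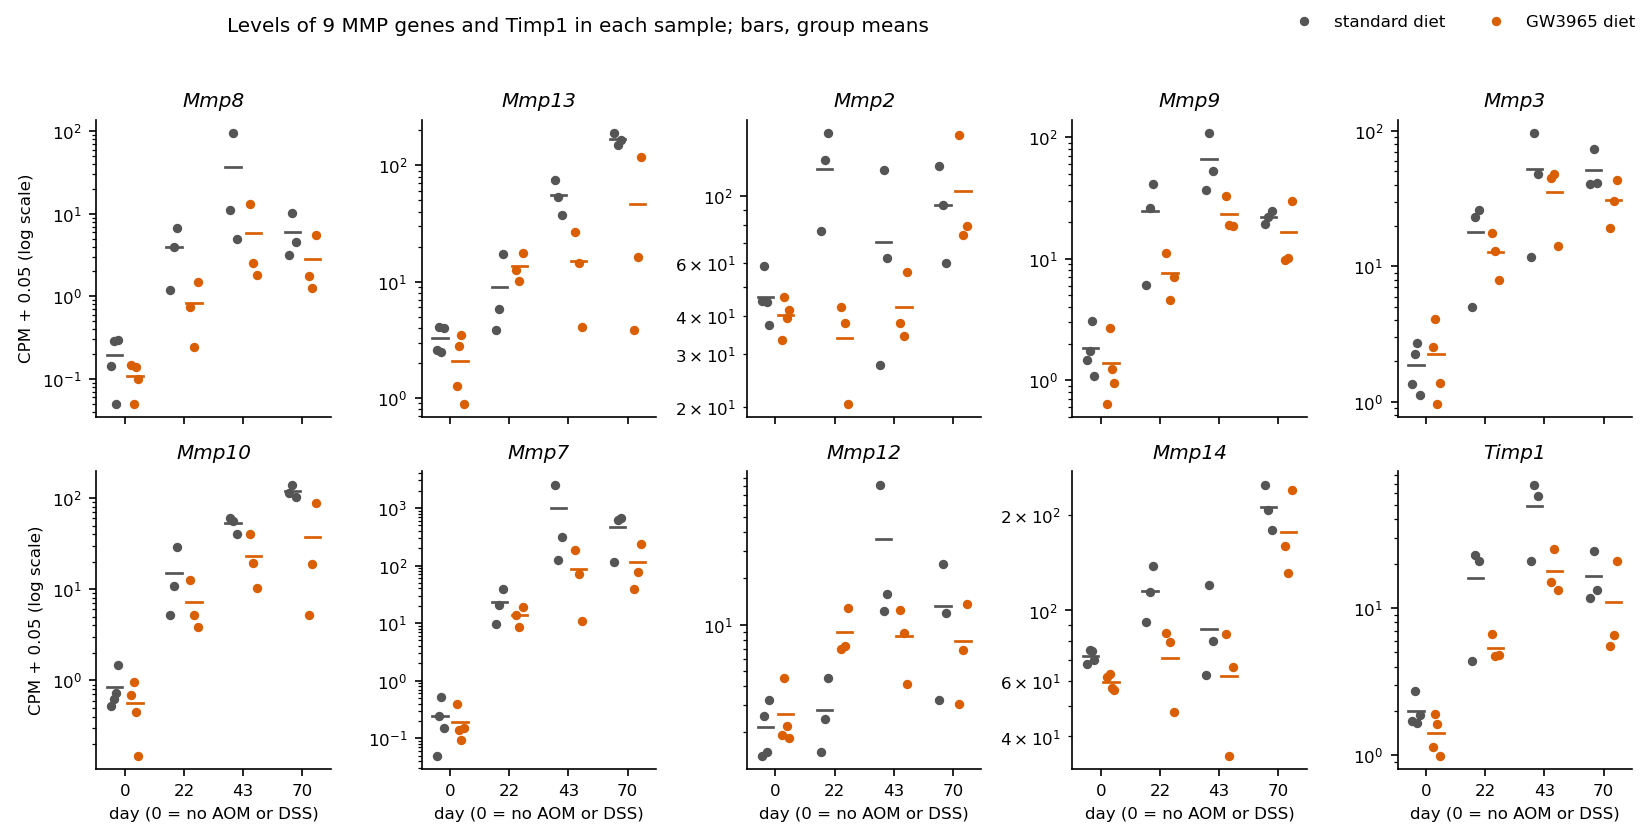
Level of each of the 10 genes in each of the 26 samples, in CPM on a log axis after adding 0.05, by day and diet, with bars at group means. Mmp7 lies below 0.5 CPM in every day 0 sample and above 8 CPM in every sample of days 22, 43 and 70.

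Against the day 0 samples of the same diet, most members were called higher at day 70, 8 and 5 of them at day 22, and few at day 43. On the standard diet, edgeR's quasi-likelihood test called 8 of 10 members higher at day 22 at a false discovery rate of 0.05, where 6.19% of all tested genes were called higher and 1.54% lower. At day 70 it called all 10 higher, against 18.1% of genes higher and 15.1% lower. At day 43 it called 0 members, and 0% of genes in the higher and 0% in the lower direction. At day 43, 8 members had an unadjusted p under 0.05, as did 8.02% of all genes, and DESeq2 called 4 members and 1.21% of genes. The median log2 fold change of the 10 members was 3.00, 3.86 and 4.20 at days 22, 43 and 70, and that of all tested genes 0.00, 0.06 and 0.04.

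On the GW3965 diet, 5 members were called higher at day 22 (Mmp3, Mmp7, Mmp9, Mmp10 and Timp1), against 9.13% of all genes higher and 3.46% lower. Only Mmp9 was called at day 43, against 0.897% of genes higher and 0.041% lower, and 9 members at day 70, all but Mmp12, against 14.4% higher and 7.43% lower. Their median log2 fold changes were 2.39, 3.15 and 3.73, and those of all genes 0.02, 0.03 and 0.10. The 3 comparisons of a diet share their day 0 samples. All these p-values measure only the spread between samples labelled as replicates. RNA was taken from whole tissue, so that more cells of a type and more RNA per cell cannot be told apart, here and below.

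Day 43 depended on the ribosomal term. Without it, 8 members on each diet were called higher, all but Mmp2 and Mmp14, where 30.8% and 26% of all genes were called higher on the standard and the GW3965 diet. In measured levels at day 43, 8 members on the standard diet had all 3 samples above all 4 day 0 samples (all but Mmp2 and Mmp14), as did 25.6% of all genes. On GW3965 that held for 7 members (all but Mmp2, Mmp12 and Mmp14) and 30.8% of genes.

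**Figure D2:**
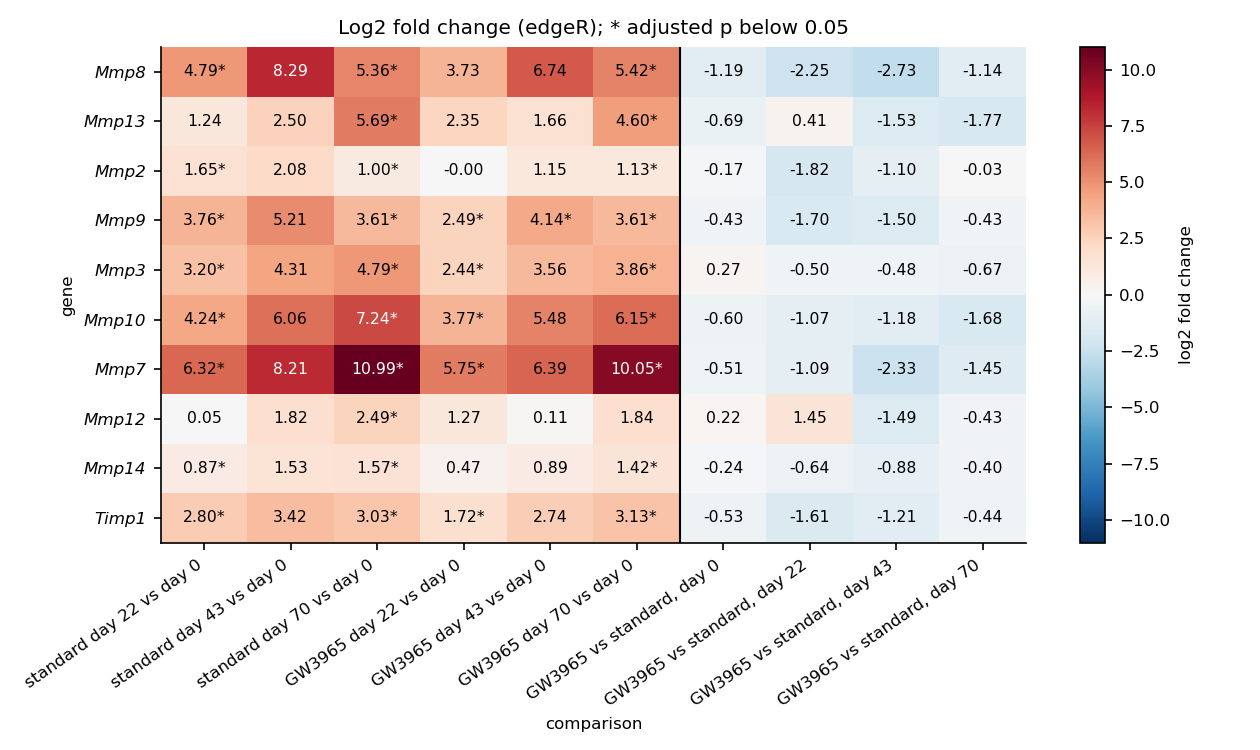
Log2 fold change of each gene (rows) in 10 comparisons (columns) from edgeR's model with the ribosomal term, with a star where the adjusted p was below 0.05. The 6 columns on the left compare treated with day 0 samples of the same diet, and the 4 on the right compare the diets, where no member has a star.

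Of the collagenases, Mmp13 is made by stromal cells and Mmp8 is stored in neutrophil granules. Mmp13 measured 2.43 to 4.01 CPM in the 4 standard-diet samples of day 0, and 3.82, 5.81 and 17.1 CPM at day 22, which overlapped. It reached 75.2, 53.3 and 37.6 CPM at day 43 and 189, 148 and 164 CPM at day 70, with all 6 samples above day 0. On GW3965 it went from 0.845 to 3.40 CPM at day 0 to 12.6, 10.1 and 17.7 at day 22, 26.6, 14.4 and 4.02 at day 43, and 3.79, 16.2 and 118 at day 70. The day 70 samples on GW3965 were thus far apart, with replicate 1 close to the day 0 range and replicate 3 near the standard diet. Mmp13 rose at day 70 by a log2 fold change of 5.69 ± 0.851 (SE) on the standard diet (edgeR, adjusted p = 0.000135) and by 4.60 ± 0.832 on GW3965 (adjusted p = 0.000784). It was not called at day 22 on either diet, at 1.24 ± 0.796 (adjusted p = 0.412) and 2.35 ± 0.839 (adjusted p = 0.0724). On GW3965 all 3 samples of day 22 were above day 0, and Mmp13 was called there without the ribosomal term (2.70 ± 0.781, adjusted p = 0.0180 in edgeR), with the RNA integrity number in its place, in the likelihood ratio test, in DESeq2, and with only these 2 groups and no such term.

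Mmp8 was nearly absent at day 0, with 0 to 5 estimated counts per sample. In the 2 samples with 0 counts, 1 of each diet, a count of 0 allows up to 0.143 and 0.146 CPM, as far as counting error goes. Its standard-diet values were 1.13, 3.87 and 6.66 CPM at day 22, then 11.2, 94.8 and 4.88 at day 43, and 3.15, 10.3 and 4.48 at day 70. Replicate 2 of day 43 was the highest of all 26 samples. On GW3965 the values were 0.695, 0.195 and 1.45 CPM at day 22, 12.98, 2.50 and 1.76 at day 43, and 1.69, 1.22 and 5.48 at day 70. Mmp8 rose on the standard diet by 4.79 ± 1.20 at day 22 (edgeR, adjusted p = 0.0176) and by 5.36 ± 1.15 at day 70 (adjusted p = 0.00178), and on GW3965 by 5.42 ± 1.29 at day 70 (adjusted p = 0.00548). The day 22 call on the standard diet was lost without replicate 3 of day 22 (4.07 ± 1.31, adjusted p = 0.103 in edgeR), with the day 0 samples of 22 diet days alone, and without replicate 1 of these. At day 22 on GW3965 it was at 3.73 ± 1.48 (adjusted p = 0.107), and was called without the ribosomal term, with the RNA integrity number in its place, in the likelihood ratio test and in DESeq2. With so few counts at day 0, the size of these fold changes is loosely fixed.

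The gelatinases differed from each other. Mmp9, another enzyme of neutrophils and macrophages, went on the standard diet from 1.04 to 3.02 CPM at day 0 to 5.97, 26.3 and 41.1 at day 22, 36.8, 108 and 52.3 at day 43, and 19.1, 22.2 and 24.8 at day 70. On GW3965 it went from 0.590 to 2.64 CPM to 11.1, 4.54 and 6.98, then 32.7, 18.9 and 18.5, and then 9.62, 10.1 and 29.6. On both diets all treated samples lay above all day 0 samples, with the highest mean at day 43. Mmp9 rose by 3.76 ± 0.635 at day 22 (edgeR, adjusted p = 0.00183) and 3.61 ± 0.613 at day 70 (adjusted p = 0.000327) on the standard diet. On GW3965 it rose by 2.49 ± 0.642 (adjusted p = 0.0146), 4.14 ± 0.940 (adjusted p = 0.0376) and 3.61 ± 0.628 (adjusted p = 0.000592) at days 22, 43 and 70.

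Mmp2, abundant before treatment, moved less. It measured 37.5 to 58.6 CPM on the standard diet at day 0, and 76.3, 132 and 161 at day 22, 27.6, 122 and 62.2 at day 43 and 126, 93.6 and 60.1 at day 70. On GW3965 it measured 33.4 to 46.4 CPM at day 0, 43.0, 37.9 and 20.5 at day 22, 38.0, 34.4 and 55.9 at day 43, and 159, 74.2 and 79.4 at day 70. Day 22 samples of the GW3965 diet thus did not exceed day 0, while all day 70 samples of both diets did. Mmp2 rose on the standard diet by 1.65 ± 0.365 at day 22 (edgeR, adjusted p = 0.00892) and by 1.00 ± 0.348 at day 70 (adjusted p = 0.0332), and on GW3965 by 1.13 ± 0.362 at day 70 (adjusted p = 0.0305). At day 22 on GW3965 its log2 fold change was 0.00 ± 0.337. The day 70 call of Mmp2 on the standard diet was lost without the ribosomal term, without the filter, and without replicate 1 (0.83 ± 0.396, adjusted p = 0.135 in edgeR) or 2 of day 70, replicate 1 of day 0 after 22 diet days, or replicate 1 or 2 after 43. That on GW3965 was lost without the filter, without replicate 1 of day 70 (0.75 ± 0.373, adjusted p = 0.168 in edgeR), and without any of the 4 day 0 samples.

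The stromelysins Mmp3 and Mmp10 both rose at days 22 and 70 on both diets. Mmp3, a stromal enzyme that also activates other MMPs, went on the standard diet from 1.09 to 2.68 CPM at day 0 to 4.997, 22.98 and 26.04 at day 22, 11.8, 95.7 and 47.7 at day 43, and 40.1, 72.8 and 41.1 at day 70. On GW3965 it went from 0.927 to 4.03 CPM to 17.5, 12.9 and 7.93, then 44.7, 47.6 and 14.1, and then 19.04, 30.2 and 43.0. All treated samples were above all day 0 samples of their diet. The log2 fold changes of Mmp3 were 3.20 ± 0.691 (edgeR, adjusted p = 0.00814) and 4.79 ± 0.698 (adjusted p = 0.000111) at days 22 and 70 on the standard diet, and 2.44 ± 0.679 (adjusted p = 0.0221) and 3.86 ± 0.684 (adjusted p = 0.000663) on GW3965. Both day 22 calls of Mmp3 were lost with the day 0 samples of 22 diet days alone. That on the standard diet was also lost without replicate 3 of day 22 (2.75 ± 0.759, adjusted p = 0.05999 in edgeR). That on GW3965 was also lost without replicate 1 or 2 of day 22, or replicate 1 or 2 of day 0 after 43 diet days.

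Mmp10, which epithelial cells make at wound edges, lay between 0.471 and 1.44 CPM at day 0 on the standard diet, and measured 5.16, 10.8 and 28.8 at day 22, 60.6, 56.5 and 40.8 at day 43, and 115, 139 and 104 at day 70. On GW3965 it lay between 0.0994 and 0.909 CPM at day 0, and measured 12.5, 5.12 and 3.81 at day 22, 40.5, 19.3 and 10.1 at day 43, and 5.17, 18.6 and 87.3 at day 70. The standard-diet samples of day 70 lay close together, and those of GW3965 were far apart, in the same order as for Mmp13. Mmp10 rose by 4.24 ± 0.841 (edgeR, adjusted p = 0.005) and 7.24 ± 0.891 (adjusted p = 3.77e-05) at days 22 and 70 on the standard diet, and by 3.77 ± 0.869 (adjusted p = 0.00719) and 6.15 ± 0.882 (adjusted p = 0.000126) on GW3965. Both day 22 calls of Mmp10 were lost with the day 0 samples of 22 diet days alone. That on the standard diet was also lost without replicate 3 of day 22 (3.25 ± 0.861, adjusted p = 0.0526 in edgeR). That on GW3965 was also lost without replicate 1 of day 22 (2.93 ± 0.953, adjusted p = 0.0834 in edgeR).

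Mmp7, or matrilysin, a small MMP of epithelial and Paneth cells that is also found in intestinal tumours, had the highest fold changes at day 70 among the members. Its estimated counts at day 0 were 0, 4, 11 and 2 on the standard diet and 7, 2, 1 and 2 on GW3965, at most 0.468 CPM, where the count of 0 allows up to 0.148 CPM. Its standard-diet values were 9.40, 20.5 and 39.1 CPM at day 22, 2503, 124 and 309 at day 43, and 116, 625 and 656 at day 70. On GW3965 it measured 13.9, 8.59 and 18.7 CPM at day 22, 182, 71.2 and 10.7 at day 43, and 38.9, 76.3 and 233 at day 70. The value of 2503 CPM belongs to the library with the RNA integrity number of 2.6. Mmp7 rose on the standard diet by 6.32 ± 1.19 at day 22 (edgeR, adjusted p = 0.00339) and 10.99 ± 1.29 at day 70 (adjusted p = 2.51e-05), and on GW3965 by 5.75 ± 1.26 (adjusted p = 0.00523) and 10.05 ± 1.29 (adjusted p = 5.97e-05).

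Mmp12, the macrophage elastase, was called in 1 comparison. Its levels on the standard diet were 1.37 to 3.22 CPM at day 0, 1.45, 2.40 and 4.44 at day 22, 80.8, 12.2 and 15.8 at day 43 and 3.21, 24.6 and 11.9 at day 70. On GW3965 it measured 1.79 to 4.46 CPM at day 0, 6.90, 7.22 and 12.8 at day 22, 12.4, 8.79 and 4.07 at day 43, and 3.02, 6.85 and 13.6 at day 70. It was called only at day 70 on the standard diet, at 2.49 ± 0.671 (edgeR, adjusted p = 0.00769), although replicate 1 of that day lay within the day 0 range, and the call was lost without replicate 2 (1.73 ± 0.684, adjusted p = 0.0708). On GW3965 its day 70 value was 1.84 ± 0.672 (adjusted p = 0.0551). It was called there with the RNA integrity number in place of the ribosomal share, in the likelihood ratio test, in DESeq2 (1.80 ± 0.663, adjusted p = 0.0288), in a fit without day 43, and without replicate 1 of day 70 or replicate 2 of day 0 after 22 diet days. It was also called at days 22 and 43 on GW3965 with only the groups compared and no ribosomal term, and at day 43 without that term in the fit of all groups.

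Counts of Mmp12 were spread over 6 transcripts, and 71.0% of them over all samples fell on Mmp12-204, which the annotation marks as a target of nonsense-mediated decay. That share was 98.1% of 2598 counts in the library with the RNA integrity number of 2.6, and 51.4% over the other 25 samples. The other transcripts of the gene came to 1.51 CPM there, within the range of 0.469 to 1.73 CPM in the standard-diet samples of day 0. At day 70 on the standard diet they came to 2.04, 14.2 and 6.91 CPM, all above that range.

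Mmp14 had the smallest standard errors of the members. It lay between 67.6 and 74.7 CPM at day 0 on the standard diet, and measured 91.6, 115 and 138 at day 22, 62.4, 120 and 80.1 at day 43, and 249, 208 and 180 at day 70. On GW3965 it lay between 56.0 and 63.1 CPM at day 0, and measured 84.9, 79.3 and 47.9 at day 22, 84.4, 34.8 and 66.4 at day 43, and 159, 132 and 241 at day 70. All day 70 samples were above day 0. Mmp14 rose on the standard diet by 0.87 ± 0.240 at day 22 (edgeR, adjusted p = 0.0300) and 1.57 ± 0.231 at day 70 (adjusted p = 0.000116), and on GW3965 by 1.42 ± 0.237 at day 70 (adjusted p = 0.000455). The call at day 22 was lost without the ribosomal term (0.68 ± 0.266, adjusted p = 0.115 in edgeR), with a replicate block, with the day 0 samples of 22 diet days alone, and without replicate 2 or 3 of day 22, replicate 1 of day 0 after 22 diet days or replicate 2 after 43.

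The inhibitor Timp1 ran like Mmp9. Its level went on the standard diet from 1.62 to 2.69 CPM at day 0 to 4.30, 22.8 and 20.8 at day 22, 20.8, 68.4 and 57.8 at day 43, and 11.6, 24.3 and 13.3 at day 70. On GW3965 it went from 0.945 to 1.86 CPM to 6.63, 4.64 and 4.71, then 14.9, 24.96 and 13.3, and then 5.43, 6.52 and 20.95. All treated samples were above all day 0 samples of their diet. Timp1 rose by 2.80 ± 0.540 (edgeR, adjusted p = 0.00403) and 3.03 ± 0.521 (adjusted p = 0.000355) at days 22 and 70 on the standard diet, and by 1.72 ± 0.543 (adjusted p = 0.0416) and 3.13 ± 0.536 (adjusted p = 0.000534) on GW3965. The day 22 call of Timp1 on GW3965 was lost without the filter, in a fit without day 43 (1.49 ± 0.560, adjusted p = 0.0976 in edgeR), with the day 0 samples of 22 diet days alone, and without replicate 1 or 2 of day 22, replicate 1 of day 0 after 22 diet days, or replicate 1 or 2 after 43. Its day 22 call on the standard diet was lost with the day 0 samples of 22 diet days alone (2.60 ± 0.750, adjusted p = 0.0805 in edgeR).

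The counts at day 22 rested on few samples. With the standard diet, 3 members (Mmp7, Mmp9 and Timp1) were called without replicate 3 of day 22, and 1 (Mmp9) with only the day 0 samples of 22 diet days as controls. The share of all genes called was also smaller there, at 2.19% and 2.01% against 7.73%. With only the day 0 samples of 22 diet days, the members no longer called had these log2 fold changes: Mmp2 (1.49 ± 0.495), Mmp3 (3.20 ± 0.902), Mmp7 (7.23 ± 1.87), Mmp8 (4.52 ± 1.63), Mmp10 (4.77 ± 1.19), Mmp14 (0.88 ± 0.328) and Timp1 (2.60 ± 0.750). On GW3965, 1 was called without replicate 1 of day 22 (Mmp7), 3 without replicate 2, 3 without replicate 1 of day 0 after 43 diet days (both times Mmp7, Mmp9 and Mmp10), 2 without replicate 2 of day 0 after 43 diet days (Mmp7 and Mmp10, without the sample with the label in doubt), and 0 with only the day 0 samples of 22 diet days. All genes called were 4.85%, 6.38%, 8.50%, 7.35% and 2.26% in these fits, against 12.6%. The single call at day 43 on GW3965 was lost with the replicate number as a block (Mmp9, 4.35 ± 1.03, adjusted p = 0.0572 in edgeR), with the day 0 samples of 43 diet days alone, and without each of 6 of its 7 samples in turn, the exception being replicate 2 of day 0 after 22 diet days. The counts at day 70 were 8 to 10 on the standard diet and 8 to 9 on GW3965 when each sample was left out in turn.

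With these changes the make-up of the MMP transcripts shifted. Summed over the 9 MMP genes, the level on the standard diet went from 64.3 ± 2.67 TPM at day 0 through 167 ± 76.3 and 822 ± 920 at days 22 and 43 to 1105 ± 426 at day 70. On GW3965 it was 59.2 ± 10.0, 81.8 ± 23.6, 138 ± 88.4 and 430 ± 257 TPM. Mmp2 and Mmp14 together made up 83.6% to 93.2% of the sum in the 8 samples of day 0, and Mmp7 at most 1.05%. At day 70 Mmp7 made up 28.9%, 68.0% and 73.8% of it on the standard diet and 23.2%, 41.1% and 49.1% on GW3965. The day 43 mean of the standard diet rests on replicate 1, which had a sum of 1884 TPM, 93.9% of it Mmp7, against 297 and 286 TPM in the other two.

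Set against Timp1 alone, the summed MMP level was 14.1 to 20.3 times the Timp1 level in the day 0 samples of the standard diet and 17.8 to 29.9 times on GW3965. At day 22 it was 13.7, 4.60 and 6.94 times on the standard diet and 9.76, 11.1 and 10.5 times on GW3965, so that all 6 samples lay below the day 0 range of their diet. At day 43 it was 93.0, 4.38 and 5.87 times on the standard diet and 14.95, 4.55 and 4.31 times on GW3965. By day 70 it was 25.4, 27.9 and 50.1 times on the standard diet and 23.2, 21.4 and 16.8 times on GW3965, so that all 3 samples of the standard diet lay above its day 0 range, while on GW3965 replicates 1 and 2 lay within it and replicate 3 below. These ratios compare RNA levels, leave out the other inhibitor genes and carry no test. The value of 93.0 times belongs to the library with the RNA integrity number of 2.6.

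**Figure D3:**
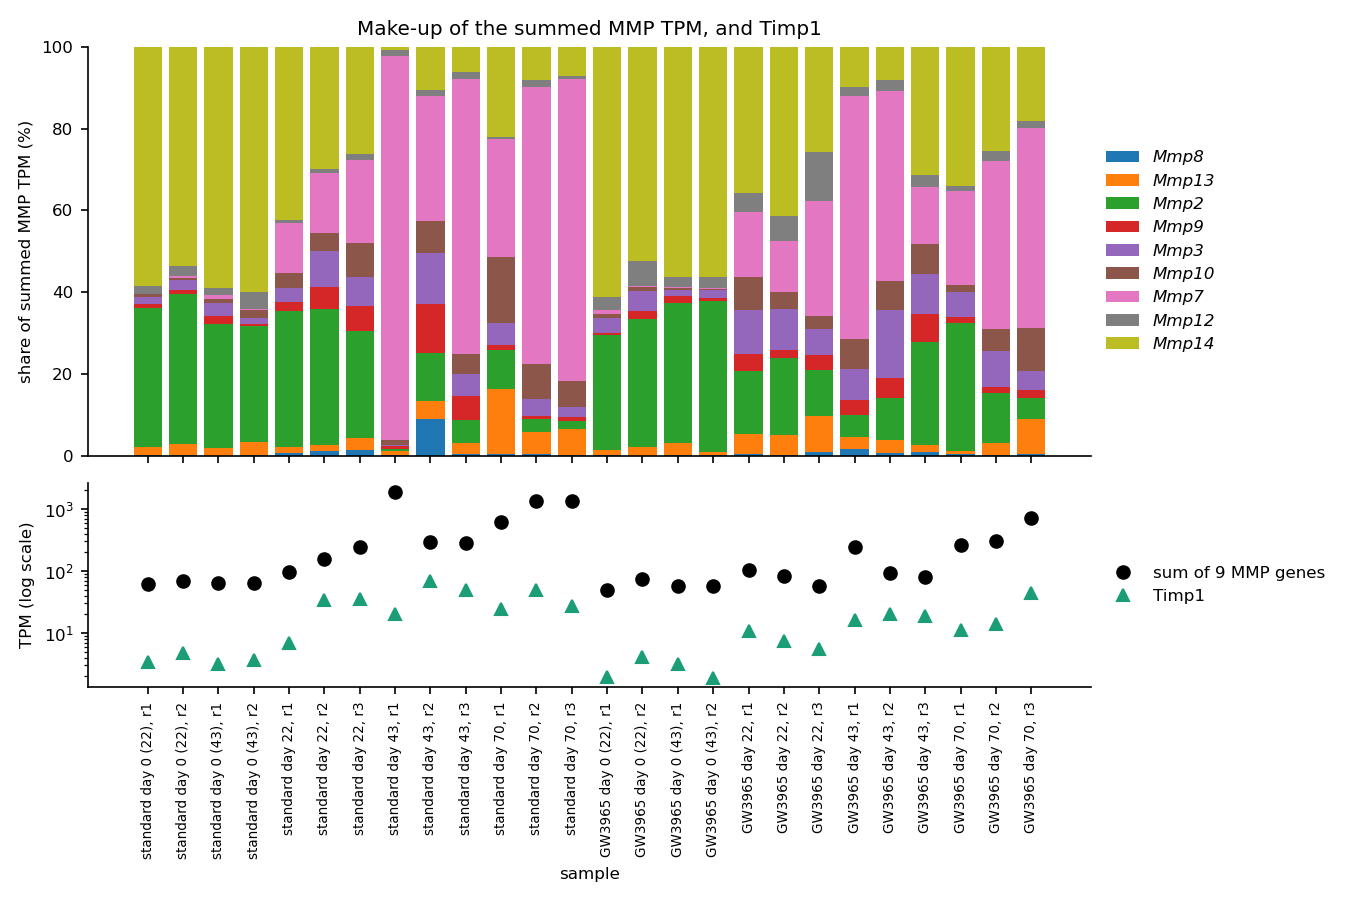
Upper panel, share of each of 9 MMP genes in their summed TPM in each of the 26 samples, in percent. Lower panel, that sum (circles) and Timp1 (triangles) in TPM on a log axis, where Mmp7 takes the largest share in 4 of the 6 samples of days 43 and 70 on GW3965 and in 6 of 6 on the standard diet.

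Whether GW3965 changed the members was asked at each day. At day 0 edgeR called 0 members and 0.0293% of all genes, none of the members had an unadjusted p under 0.05 (1.94% of all genes did), and DESeq2 called 0 members and 0.176% of genes. Mmp14 was the only member without overlap, at 67.6 to 74.7 CPM on the standard diet and 56.0 to 63.1 on GW3965, as were 2.29% of all genes. Its log2 fold change was -0.24 ± 0.215 (edgeR, adjusted p = 1.00). The other values were those of Mmp2 (-0.17 ± 0.326), Mmp3 (0.27 ± 0.634), Mmp7 (-0.51 ± 1.64), Mmp8 (-1.19 ± 1.52), Mmp9 (-0.43 ± 0.589), Mmp10 (-0.60 ± 0.886), Mmp12 (0.22 ± 0.625), Mmp13 (-0.69 ± 0.752) and Timp1 (-0.53 ± 0.502).

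At day 22 edgeR called 0 members and 0.135% of all genes, with an unadjusted p under 0.05 for 4 members and for 9.96% of genes, and DESeq2 called 1 member and 1.79%. The member nearest to a call was Mmp2, with 76.3, 132 and 161 CPM on the standard diet and 43.0, 37.9 and 20.5 on GW3965. These groups did not overlap, and the log2 fold change was -1.82 ± 0.388 (edgeR, adjusted p = 0.0697). It was called with the RNA integrity number in place of the ribosomal share (adjusted p = 0.0477), in edgeR's likelihood ratio test (adjusted p = 0.00293), in DESeq2 (adjusted p = 0.00126), and without replicate 1 of the standard diet (-2.12 ± 0.380, adjusted p = 0.0266). Mmp14 also had lower values on GW3965 without overlap, at -0.64 ± 0.25, and Mmp12 higher ones, at 1.45 ± 0.728, while 23.6% of all genes did not overlap. Timp1 and Mmp9 overlapped, at -1.61 ± 0.544 and -1.70 ± 0.627. The fitted values of the others were those of Mmp3 (-0.50 ± 0.666), Mmp7 (-1.09 ± 0.935), Mmp8 (-2.25 ± 1.11), Mmp10 (-1.07 ± 0.771) and Mmp13 (0.41 ± 0.817).

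At day 43 edgeR called 0 members and 0.0293% of all genes, with an unadjusted p under 0.05 for 5 members and for 8.65% of genes, and DESeq2 called 0 members and 0.399%. All 10 fitted log2 fold changes were below 0, with a median of -1.35, against -0.03 for all genes, and the smallest adjusted p was 0.475. Mmp9, Mmp10 and Mmp13 were lower on GW3965 without overlap, as 10.9% of all genes were without overlap in either direction. Their log2 fold changes were -1.50 ± 0.668, -1.18 ± 0.840 and -1.53 ± 0.892. For the rest they were as follows: Mmp2 (-1.10 ± 0.407), Mmp3 (-0.48 ± 0.677), Mmp7 (-2.33 ± 1.24), Mmp8 (-2.73 ± 1.07), Mmp12 (-1.49 ± 0.847), Mmp14 (-0.88 ± 0.282) and Timp1 (-1.21 ± 0.574).

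At day 70 edgeR called 0 members and 1.83% of all genes, with an unadjusted p under 0.05 for 2 members and for 18.8% of genes, and DESeq2 called 0 members and 6.81%. The 2 members were Mmp10, at -1.68 ± 0.770 (adjusted p = 0.243 in edgeR), and Mmp13, at -1.77 ± 0.805 (adjusted p = 0.241), whose values on the diets did not overlap, as was so for 19.1% of all genes. Replicate 3 of GW3965 was near the standard diet for both, with 87.3 CPM of Mmp10 and 118 CPM of Mmp13. Without it, edgeR called both, at -3.44 ± 0.812 (adjusted p = 0.0148) and -3.90 ± 0.814 (adjusted p = 0.00804), as it did 8.39% of all genes. In that comparison 2 GW3965 samples stand against 3. Of these, replicate 1 had the lowest Mmp10 and Mmp13 of day 70 and stood apart in its markers (below), with 17840 CPM of skeletal muscle, 18620 CPM of stratified epithelium and 2218 CPM of colon epithelium, against 5772 to 13540 CPM of the last on the standard diet. The share of all genes called at day 70 was 0.0343% without replicate 1 of the standard diet and 0.0401% without its replicate 3. It was 0% with only the 2 groups compared and no ribosomal term. Mmp7 was at -1.45 ± 0.971 (adjusted p = 0.430) and its groups overlapped. The fit gave these values for the remaining members: Mmp2 (-0.03 ± 0.383), Mmp3 (-0.67 ± 0.678), Mmp8 (-1.14 ± 1.03), Mmp9 (-0.43 ± 0.617), Mmp12 (-0.43 ± 0.720), Mmp14 (-0.40 ± 0.252) and Timp1 (-0.44 ± 0.536). Without replicate 3 of GW3965 they were Mmp2 (0.10 ± 0.438), Mmp3 (-0.97 ± 0.798), Mmp8 (-2.255 ± 1.24), Mmp9 (-1.22 ± 0.681), Mmp12 (-0.99 ± 0.838), Mmp14 (-0.78 ± 0.245) and Timp1 (-1.26 ± 0.572). Mmp7 was then at -2.27 ± 1.17, and none of these was called.

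The 4 diet terms tested together gave 0 members and 0.176% of all genes in edgeR, with an unadjusted p under 0.05 for 5 members and for 13.5% of genes, and DESeq2 gave 2 members and 5.09%. The smallest adjusted p was 0.124, for Mmp2. Without replicate 1 of day 43 on the standard diet or without replicate 3 of day 70 on GW3965, 1 member was called, beside 0.563% and 1.32% of all genes. A difference of the diet effect between days was found in 0 members and 0% of all genes, with an unadjusted p under 0.05 for 1 member (Mmp2) and for 13.5% of genes, and DESeq2 gave 0 members and 3.05% of genes.

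Several groups of genes act with the MMPs, and they were counted beside the members in the same edgeR tests. Of all tested genes, 6.19% and 18.1% were called higher at days 22 and 70 on the standard diet and 9.13% and 14.4% on GW3965, and no enrichment of a list was tested. Counts such as 1 of 8, or 1 or 2 of 13, are near these shares, here and for the markers below. Of 10 cytokines and growth factors known to induce MMP genes, 8 were called higher at day 22 and 8 at day 70 on the standard diet, and 7 and 9 on GW3965. Tnf rose by 3.69 ± 0.547, 3.83 ± 0.534, 4.40 ± 0.552 and 3.56 ± 0.536 in these 4 comparisons. Il11, a stromal cytokine, rose at day 70 by 6.78 ± 0.908 on the standard diet and 5.24 ± 0.931 on GW3965. At day 43, 0 were called on either diet, and 0 were called between the diets at any day.

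Of 14 other MMP genes, 11 were tested, and Mmp1a, Mmp1b and Mmp21 were too low. Among these, 2 were higher at day 22 on the standard diet, and 3 were higher and 1 lower at day 70. Mmp25, a leukocyte MMP, rose by 3.13 ± 0.649 at day 22, Mmp28 rose by 1.75 ± 0.313 at day 70, and Mmp17 fell by 2.64 ± 0.462 on the log2 scale. Mmp20 was called higher at day 70, at 0.263 to 0.972 CPM against a count of 0 in all 4 day 0 samples, which allows up to 0.159 CPM, so that its fold change has no fixed size. On GW3965, 2 were higher and 1 lower at day 22, 1 was higher at day 43 (Mmp27, at 0.686 to 1.08 CPM against at most 0.0491 at day 0), and 4 were higher and 1 lower at day 70.

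Timp1 is not the only inhibitor of MMPs. Of 5 other inhibitor genes, 4 were called lower and 0 higher at day 70 on the standard diet, where 15.1% of all genes were called lower, with Reck, a membrane-anchored inhibitor, at -2.37 ± 0.378, Timp2 at -1.14 ± 0.331 and Timp4 at -1.09 ± 0.356. None was called at day 22 on the standard diet or at day 43 on either diet. On GW3965, 0 of the 5 were called at day 70 and 1 was lower at day 22 (Timp4, -1.48 ± 0.384). Between the diets, A2m, a broad protease trap, was called higher on GW3965 at day 70 (adjusted p = 0.0265 in edgeR), with 0.459 to 2.98 CPM in the 3 GW3965 samples and a count of 0 in the 3 of the standard diet. That count allows up to 0.153 CPM, so that this fold change has no fixed size either. In this comparison 1.83% of all genes were called, and from 0.0343% to 8.39% without single samples. Whether A2m was called in those fits is not given here.

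Of 10 genes of the plasminogen system and MMP activation, 9 were tested (not Plg). At day 70, 6 were higher and 1 lower on the standard diet, and 5 were higher and 1 lower on GW3965. Counts of this list at day 22 are not given. Plau, the urokinase gene, rose at day 70 by 1.99 ± 0.303 on the standard diet and 1.58 ± 0.311 on GW3965. Klk1, a kallikrein, fell by 3.26 ± 0.528 on the log2 scale at day 70 on GW3965.

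Of 13 ADAM and ADAMTS proteases, 3 were higher at day 22 and 6 at day 70 on the standard diet, and 1 and 5 on GW3965. Adam12 rose by 2.48 ± 0.458 at day 22 and 3.46 ± 0.442 at day 70 on the standard diet. Between the diets it was the 1 gene of the list called, lower on GW3965 at day 22 at -2.67 ± 0.483 (adjusted p = 0.0262 in edgeR), with 0.680 to 1.56 CPM in the 3 GW3965 samples and 3.65 to 12.3 in the 3 of the standard diet. In this comparison 0.135% of all genes were called, and from 0.0286% to 0.12% without single samples. Whether Adam12 was called in those fits is not given here. Of 13 AP-1 and ETS factors, which bind the motifs named above, 1 was higher at day 22 (Ets1, 1.33 ± 0.246) and 4 at day 70 on the standard diet, among them Jun (1.25 ± 0.330) and Fosl1 (3.52 ± 1.02). On GW3965, 1 was higher (Ets1, 1.00 ± 0.251) and 1 lower (Ehf, -1.09 ± 0.310) at day 22, and 2 were higher at day 70 (Ets1, 0.84 ± 0.247, and Junb, 1.25 ± 0.391).

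Among 12 matrix proteins that MMPs cut, 3 were called higher at day 22 on the standard diet and 0 on GW3965, and 7 at day 70 on each diet. Spp1 (osteopontin) rose by 3.93 ± 0.996 at day 22 and 6.81 ± 1.03 at day 70 on the standard diet and by 5.80 ± 1.00 at day 70 on GW3965. Col1a1 rose by 1.55 ± 0.468 at day 22 on the standard diet. Between the diets at day 22, all 12 fitted values were below 0, with a median of -1.20 against -0.01 for all genes, and 1 was called, Col4a1 at -1.20 ± 0.232 (adjusted p = 0.0391 in edgeR), with all 3 GW3965 samples below the 3 of the standard diet. Whether Col4a1 was called without single samples is not given here. In the same comparison of the diets at day 22 all fitted values were also below 0 for the 5 other inhibitors (median -0.41), the 13 ADAM and ADAMTS genes (-0.47), the 13 AP-1 and ETS factors (-0.43), and the markers of fibroblasts (8, -0.64), endothelium (5, -0.62) and neutrophils (9, -0.91). The remaining lists were mixed or higher. Values above 0 were found for 4 of 6 smooth muscle markers (median 0.15), 3 of 6 of skeletal muscle, 3 of 9 of colon epithelium and 2 of 9 of macrophages (-0.06).

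Markers of cell types that make MMPs were counted too. Of 9 neutrophil markers tested of 10 (Elane was too low), 5 were called higher at day 22 and 6 at day 70 on each diet, and 4 at day 43 on GW3965. Their summed level lay between 96.6 and 246 CPM in the 8 samples of day 0, where Ngp was at 0 in 6 and Camp in 3 samples and Elane in all 8. That sum on the standard diet was 303, 555 and 806 CPM at day 22, 2402, 12850 and 3100 at day 43, and 430, 724 and 361 at day 70. On GW3965 it was 538, 185 and 539 CPM at day 22, 3204, 1610 and 845 at day 43, and 1083, 280 and 1261 at day 70. S100a8 had the highest mean TPM of these genes and was the highest in 8 of 26 samples, none of them of day 0. Ly6g was the highest in 12 samples, among them all 8 of day 0, where Mpo was at 0 in some. The sample with the highest sum, replicate 2 of day 43 on the standard diet, was also the highest for Mmp8, Mmp9 and Timp1.

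Of 9 macrophage and monocyte markers, 5 were called higher at day 22 on the standard diet and 6 on GW3965, and at day 70 1 was higher and 1 lower on the standard diet and 3 were higher on GW3965. The sum lay between 394 and 726 CPM at day 0. It was 1044, 2103 and 1850 CPM at day 22, 2203, 5598 and 3938 at day 43, and 263, 656 and 338 at day 70 on the standard diet. On GW3965 it was 1786, 1828 and 2131, then 3490, 5470 and 2030, and then 785, 1051 and 591 CPM. Lyz2 was the most abundant by TPM in all samples and no marker was at 0.

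Of 8 fibroblast markers, 1 was higher at day 22 on each diet (Pdpn, 1.46 ± 0.285 and 0.93 ± 0.289), and at day 70 1 was higher and 3 lower on the standard diet and 1 higher on GW3965. Their sum lay between 691 and 1411 CPM at day 0, with Dcn the most abundant by TPM in every sample and none at 0. On the standard diet it was 816, 1746 and 1317 CPM at day 22, 1573, 2486 and 1862 at day 43, and 583, 664 and 447 at day 70, and on GW3965 940, 817 and 795, then 1067, 1663 and 1465, and then 1466, 671 and 662 CPM.

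Markers of tissue beyond the colon lining were counted as well, and RNA levels cannot tell such tissue from expression of these genes in the colon lining. All 8 markers of stratified epithelium, which lines the anal canal, were called higher at day 70 on both diets and at day 43 on GW3965, and 1 (Sprr1a, 4.11 ± 1.12) at day 22 on GW3965. Their sum was at most 11.4 CPM at day 0, where Krt6a was at 0 in all 8 samples and Krt13 in 2. It was 17.1, 27.0 and 42.3 CPM at day 22, 496, 1763 and 762 at day 43, and 3365, 4659 and 4610 at day 70 on the standard diet. On GW3965 it was 51.3, 20.1 and 50.4, then 2363, 185 and 4138, and then 18620, 22.0 and 13590 CPM, with Krt13 the highest in mean TPM but the first in only 6 of 26 samples, none of day 0. In replicates 1, 2 and 3 of day 70 on GW3965, these markers summed to 18620, 22.0 and 13590 CPM. Mmp7 measured 38.9, 76.3 and 233 CPM in them and Mmp10 5.17, 18.6 and 87.3 CPM. The part of such tissue in these levels was not tested.

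Skeletal muscle markers summed to at most 85.1 CPM at day 0, and to 10.0, 716 and 139 CPM at day 70 on the standard diet and 17840, 12.5 and 25.3 on GW3965, so that 1 library stood apart. Acta1 had the highest mean TPM but was first in only 2 of 26 samples, Myh4 was at 0 in 19 samples, and 3 of 6 markers were called at day 70 on the standard diet and 5 on GW3965. Of 6 Paneth cell markers, all were called higher at day 70 on the standard diet and 4 on GW3965, and 1 at day 22 on GW3965 (Ang4, 9.54 ± 1.37). Their sum was at most 42.3 CPM at day 0, with at least 2 defensin genes at 0 in each sample there. It was 53.3, 67.3 and 103 CPM at day 22, 6458, 209 and 559 at day 43 and 502, 3553 and 3067 at day 70 on the standard diet, and 131, 1163 and 849, then 297, 182 and 83.5, and then 132, 176 and 570 CPM on GW3965. Lyz1 was the most abundant by TPM in 22 of 26 samples and Ang4 in the other 4. The library with the highest sum, replicate 1 of day 43 on the standard diet, was also that with the highest Mmp7, and had the RNA integrity number of 2.6. Beside sums of 1163 and 849 CPM, replicates 2 and 3 of day 22 on GW3965 had 8.59 and 18.7 CPM of Mmp7. Beside sums of 502, 3553 and 3067 CPM, the standard-diet samples of day 70 had 116, 625 and 656 CPM. A link between these levels was not tested.

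The other cell types were counted in the same way. Of 9 colon epithelium markers (Krt8 the most abundant in 25 of 26 samples, none at 0), 1 was lower at day 22 on each diet (Car1), and at day 70 1 was higher and 2 lower on the standard diet and 2 lower on GW3965. Of 6 smooth muscle markers (Tagln the most abundant in all samples, none at 0), 6 were lower at day 70 on the standard diet and 2 on GW3965, with sums of 1580, 3509 and 1953 CPM and 7081, 2782 and 4179 CPM against 5448 to 23420 at day 0. Of 5 endothelial markers (Plvap the most abundant in 23 of 26 samples, none at 0), 2 were higher at day 70 on GW3965. Of 5 mast cell markers (Mcpt1 the highest in mean TPM and in 11 of 26 samples, none of day 0, and no marker at 0), 2 were higher at day 22 on each diet, with 1 lower on GW3965, and 2 were higher and 1 lower at day 70 on each diet. Of 6 B and plasma cell markers (Jchain the most abundant in all samples, none at 0), 2 were higher at day 22 on GW3965, 5 were lower at day 70 on the standard diet, and 2 were higher at day 70 on GW3965, and 5 were higher on GW3965 than on the standard diet at day 70. Of 6 T cell markers (Cd3d the highest in mean TPM and in 9 of 26 samples, none at 0), 4 and 6 were higher at day 22 on the standard diet and GW3965 and 4 at day 70 on GW3965, and Cd4 was higher on GW3965 than on the standard diet at day 70. Between the diets at day 70, 1.83% of all genes were called. That share ranged from 0.0343% to 8.39% without single samples, and whether these marker calls held in such fits is not given here.

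The sums of these lists follow as mean ± SD at days 0, 22, 43 and 70, without a test. Smooth muscle markers summed to 13010 ± 7027, 8390 ± 3247, 6924 ± 2972 and 2348 ± 1023 CPM on the standard diet. On GW3965 they came to 10720 ± 3755, 8958 ± 1030, 9057 ± 3677 and 4680 ± 2193 CPM. Colon epithelium markers summed to 8816 ± 2457, 5694 ± 1336, 3548 ± 808 and 8628 ± 4273 CPM on the standard diet and 8826 ± 2200, 5984 ± 473, 4629 ± 671 and 5579 ± 2925 on GW3965. B and plasma cell markers came to 794 ± 943, 2116 ± 906, 8841 ± 5783 and 378 ± 306 CPM on the standard diet and 286 ± 117, 2481 ± 668, 6555 ± 4036 and 1163 ± 1176 on GW3965. T cell markers came to 17.1 ± 11.5, 103 ± 29.4, 92.7 ± 43.4 and 11.7 ± 5.42 CPM on the standard diet and 13.2 ± 2.78, 91.3 ± 0.910, 115 ± 48.2 and 49.2 ± 28.4 on GW3965. Endothelial markers came to 200 ± 47.2, 249 ± 23.2, 150 ± 68.8 and 201 ± 27.1 CPM on the standard diet and 213 ± 8.00, 161 ± 33.8, 171 ± 32.0 and 365 ± 157 on GW3965, and mast cell markers to 34.1 ± 1.51, 56.4 ± 1.66, 153 ± 179 and 37.8 ± 14.9 CPM on the standard diet and 34.7 ± 2.57, 68.2 ± 33.6, 22.5 ± 1.24 and 31.5 ± 9.69 on GW3965. The part of all these cell types in the levels of the members was not tested.

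**Figure D4:**
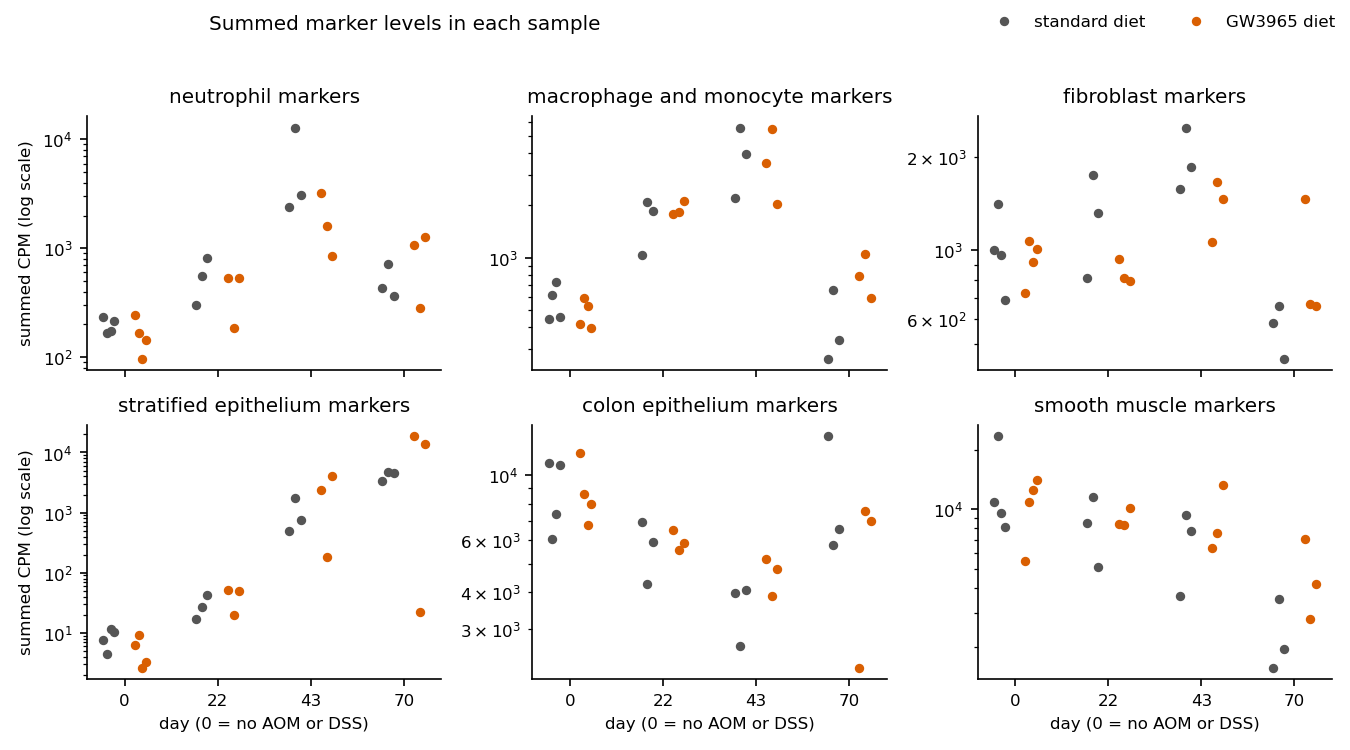
Summed CPM of 6 lists of marker genes in each sample on log axes, by day and diet. Neutrophil and macrophage markers have their highest values at day 43, and stratified epithelium markers are far above day 0 in all samples of day 70 but replicate 2 on GW3965.

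The genes whose levels ran most like each member over the 26 samples were taken as those with the 3 highest Pearson correlations of log2 CPM, given here as a description without a test. Samples share groups, libraries and depth, so the correlation of deviations from the group means stands beside each. Mmp2 ran most like the collagen genes Col18a1, Col1a2 and Col1a1, with r of 0.942, 0.925 and 0.913 (within groups 0.869, 0.840 and 0.923). Mmp9 and Timp1 ran most like each other, with r of 0.966 (within groups 0.746). Next for Mmp9 were Trem1, at 0.961 (0.841), and Retnlg, at 0.953 (0.661), and next for Timp1 were Retnlg, at 0.954 (0.702), and Smim3, at 0.954 (0.779). Mmp8 was closest to Retnlg, a neutrophil gene, at 0.957 (0.861), then to Timp1, at 0.921 (0.489), and Mmp9, at 0.919 (0.475).

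Mmp7 and Mmp10 shared their closest gene, Wfdc18, a small secreted protein gene, with r of 0.971 and 0.954 (within groups 0.814 and 0.713). Tgif2 and Trim10 came next for Mmp7, at 0.959 (0.779) and 0.956 (0.671), and Il11 and Mmp7 for Mmp10, at 0.948 (0.682) and 0.948 (0.511). Mmp13 was closest to Mmp10, which lies in the same stretch of chromosome 9, with r of 0.923 (within groups 0.837), then to Col9a3 and Ino80c, at 0.909 (0.576) and 0.898 (0.676). Mmp3 was closest to Adam8, Dio2 and Lrg1, at 0.930 (0.624), 0.929 (0.749) and 0.929 (0.766). Mmp14 was closest to Vash2, Osbpl3 and Sulf2, at 0.921 (0.756), 0.907 (0.717) and 0.899 (0.640). Mmp12 was closest to Dimt1, Mdm1 and Hdac3, at 0.903, 0.902 and 0.900 (within groups 0.790, 0.759 and 0.734). Among the members themselves, the lowest correlation was that of Mmp2 with Mmp12, at -0.14 (within groups -0.53).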

How the data were processed

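RNA of 26 colon samples in 8 groups of diet and day was analysed. According to the submitters' processing notes, reads were mapped with kallisto to GRCm38, with versions not given in the sources used here. The authors deposited estimated counts and TPM for each transcript, without normalization across samples. Of 119414 transcripts, 116728 (97.8%) were matched to GENCODE genes of GRCm38, and 0.615% to 0.999% of counts per sample fell on transcripts without a match. For each gene the transcript counts were added up and rounded, and so were TPM, unrounded. Genes were filtered with filterByExpr and normalized by TMM.

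Contrasts of the 8 groups, with the centred percentage of counts on ribosomal protein genes as a term, were tested in edgeR by quasi-likelihood, adjusted by Benjamini-Hochberg over all 17063 tested genes and called at 0.05. The tests were also run on simulated data, and no outcome of that is given or used here. R 4.3.3, edgeR 4.0.16, limma 3.58.1, DESeq2 1.42.0, Python 3.11.15, pandas 2.3.3, numpy 2.4.6 and matplotlib 3.10.9 were used. Alternatives changed the covariate, filter, normalization, test, tool, controls, replicate block and samples.

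Members and lists were chosen with earlier results of these data known. All members are named in each comparison of 2 groups, by level or fold change. Other genes are named if called, at most the 3 of the smallest p per list and comparison, or as the marker of the highest mean TPM, or as the 3 genes most like a member. Ly6g is named as the highest neutrophil marker at day 0. Genes named for their position on a chromosome, for being at 0 or for not being tested fall outside that rule.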

Additional observations from a re-analysis of the deposited data

Results flagged for a closer look

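Among the day 0 samples of the GW3965 diet, the level of Mmp12 was far higher in replicate 2 after 22 diet days (4.46 CPM) than in the others (1.79 to 2.16 CPM). The gap to the nearest sample was 0.860 of the group's whole range. Of 20 groups of 4 samples that were examined in this way, 1 stood out, and chance gives about 1 in 20.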

How the results depend on the processing

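Over the alternatives to the analysis reported, 1444 log2 fold changes of single members kept their side of the threshold, 83 passed it only in the alternative and 60 only in the analysis reported, and 0 of those called in either changed direction. The counts of members called at day 70 against day 0, and between the diets at days 0 and 43, kept within 1.5 times in all alternatives run, as did the difference of the diet effect between days. Members called at day 22 on the standard diet (8) were 1 with the day 0 samples of the same diet days and 3 to 8 without single samples. At day 43 on the standard diet (0) they were 8 without the ribosomal term, 9 with the RNA integrity number in its place, 2 in the likelihood ratio test, 4 in DESeq2 and 8 with only the groups compared and no ribosomal term. On GW3965 at day 22 (5) they were 0 with the same diet days, 3 in a fit without the 6 samples of day 43, which was chosen after seeing the data, and 1 to 5 without single samples, while without the ribosomal term, with the RNA integrity number, in the likelihood ratio test, in DESeq2 and with only the groups compared and no ribosomal term they were 7 each. At day 43 (1) they were 8, 7, 6, 6 and 8 under the changes named for the standard diet, 0 with a replicate block, 0 with the same diet days and 0 to 1 without single samples. Between the diets at day 22 (0) they were 1 with the RNA integrity number, 1 in the likelihood ratio test, 1 in DESeq2 and 0 to 1 without single samples, and at day 70 (0) they were 0 to 2 without single samples. In the joint test (0) they were 2 in the likelihood ratio test, 2 in DESeq2, 1 in the model with all interactions and 0 to 1 without single samples. The cause was not tested, except that the same diet days and the left-out samples leave fewer samples by construction. Replicate numbers share only a number, and the correlation of deviations between same-numbered samples of the diets ranged from -0.370 to 0.201 over 13 pairs, so that fits without a block are given first. Counts of 0 to 11 at day 0 limit how closely the fold changes of Mmp7 and Mmp8 can be known.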
